A study of Mus musculus with 6 samples.

Results

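Interferon genes were followed in mouse podocytes (MPCs), a conditionally immortalized podocyte cell line. The set held 45 genes in 6 roles, namely receptor chains, JAK, STAT and SOCS genes, IRF factors, antiviral and ISG15 genes, interferon-induced GTPases, and antigen presentation genes. They were found by symbol in a table of 24469 loci, where they occupied 43 loci because Ifit2 and Ifit3 shared a locus and Igtp and Irgm2 shared another. Of these, 39 loci, holding 41 of the 45 genes, had a mean of at least 1 FPKM (fragments per kilobase of transcript, scaled to library size) over the libraries and were tested among 10562 such loci. The loci of Ifit1, Mx1, Gbp7 and Cd274 lay below that level. Another 4 loci merged a member with non-members, so that 6 loci with 8 members hold the fragments of more than 1 gene.

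RNA-Seq was done on 6 libraries, in 3 groups of 2. In every group the cells had been expanded at 33 °C in medium with interferon gamma (50 U/mL), differentiated for 10 days at 37 °C without it, starved of serum for 12 h and then kept in high glucose (HG, 25 mM) for 12 h. The HG group received nothing else, and before HG the rFGF1WT and rFGF1ΔHBS groups received 100 ng/mL of wild-type FGF1 or of its heparan sulfate-binding mutant for 1 h. No library without HG was analysed here, so the comparisons show the effect of FGF1 within HG and not that of glucose, and both FGF1 groups were set against the same HG libraries. Interferon gamma was in the expansion medium of all 3 groups, and no library from cells grown without it was analysed here. Nothing in the labels says that the libraries of a group came from separate cultures, so the p-values measure the spread between these libraries, which may be technical. The summed FPKM of the 43 loci was 1182 and 1052 in HG, 1019 and 977.4 in rFGF1WT, and 921 and 957.9 in rFGF1ΔHBS. B2m alone made up a large part of it, and without B2m the sums were 658.4 and 662.7 in HG, 587.6 and 606.5 in rFGF1WT, and 530.6 and 592.5 in rFGF1ΔHBS.

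The podocyte label was borne out only in part. Nphs1 and Wt1, which define mature podocytes, had mean FPKM values of 0.781 and 0.0376, both below 1 and that of Wt1 near 0. Of 15 podocyte markers, 14 were listed and 6 reached a mean of 1, led by the actin crosslinker Actn4 at 96.6. Their summed FPKM was 186 and 181 in HG, 231 and 234 in rFGF1WT, and 213 and 225 in rFGF1ΔHBS. The direction differed among the markers, since Synpo was at 9.58 and 10.2 in HG against 4.01 to 6.83 with FGF1, and Podxl at 16.7 and 17.6 against 14.8 to 15.8, whereas Actn4, Cd2ap and Kirrel were above HG in all FGF1 libraries. Among 12 immune cell markers, 10 were listed and 2 reached a mean of 1, the macrophage growth factor receptor Csf1r at 5.80 and Cd68 at 61.2, whose locus is merged with the translation factor gene Eif4a1 and so does not measure Cd68 alone, whereas the leukocyte marker Ptprc (0.0275) and the macrophage marker Adgre1 (0.00446) were near 0. The immune sum was 63.1 and 61.1 in HG, 70.1 and 67.3 in rFGF1WT, and 71.5 and 71.4 in rFGF1ΔHBS, most of it from that merged locus. Without the locus the sum was 9.97 and 11.1 in HG, 3.76 and 4.20 in rFGF1WT, and 4.33 and 4.11 in rFGF1ΔHBS, most of it from Csf1r. Csf1r itself was at 9.56 and 10.7 FPKM in HG against 3.21 and 3.68 in rFGF1WT and 3.93 and 3.76 in rFGF1ΔHBS. Of 7 tubule epithelium markers, 5 were listed and 3 reached a mean of 1, led by the cadherin Cdh16 at 77.4, and their sum was 158 in both HG libraries, 116 and 119 in rFGF1WT, and 109 and 122 in rFGF1ΔHBS. Endothelial markers stayed below a mean of 1 in all 7 cases. Of 6 mesangial markers 3 reached it, led by Pdgfrb at 28.6, with sums from 43.4 to 48.2 and no order by group. The sums hid opposite directions. Pdgfrb was at 31.8 and 32.7 in HG against 26.1 to 27.5 with FGF1. Acta2 (10.8 and 12.7 against 14.1 to 17.7) and Gata3 (2.30 and 2.17 against 2.73 to 3.10) were above HG in all FGF1 libraries. The sum of 8 housekeeping genes, led by Actb at 1440, was 1960 and 1910 in HG, 2720 and 2650 in rFGF1WT, and 2360 and 2650 in rFGF1ΔHBS. Csf1r, Pdgfrb and the tubule markers were highest in the HG libraries, as were the 4 member loci called lower in each comparison with HG. The part of other cell types in the results was not tested. In bulk RNA, fewer cells of a type and less RNA per cell cannot be told apart.

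Interferons act through receptor pairs on the cell surface. Type I interferons bind IFNAR1 and IFNAR2, interferon gamma binds IFNGR1 and IFNGR2, and both pairs pass the signal to JAK kinases, which phosphorylate STAT proteins. STAT proteins with IRF9 bind the interferon-stimulated response element (ISRE), and STAT dimers bind the gamma-activated site (GAS), which together switch on many antiviral, GTPase and antigen presentation genes. SOCS proteins and USP18 restrain the same signal. Interferon gamma also drives the temperature-sensitive large T antigen of conditionally immortalized lines, which is why it is used to expand them and is withdrawn for differentiation.

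The elements through which interferons act can be seen in the promoters of several members. RefSeq promoter windows (GRCm38.p6, 250 bases before to 50 after a start) matched 40 of the 45 genes, in 46 windows, but held no entry for Usp18, Tap2, Parp14, Mx1 and Mx2. The ISRE core, searched as GAAANNGAAA on both strands, lay in 17 of the 46 windows (37.0%) and in 1131 of 32851 windows of all genes (3.44%). The GAS motif, searched as TTCNNNGAA, lay in 12 windows (26.1%) and in 2726 of all (8.30%). These letter matches are descriptions and were not tested as binding sites. The stretches below were chosen because they belong to the locus that differed most (Ifi47), to loci described later, or to the closely related pair Igtp and Irgm2. They run 5′ to 3′ along the gene's own strand, none overlaps an annotated exon, and capitals mark ISRE core and GAS matches.
Ifit3, chr19:34583353-34583436 (+), 2 ISRE cores on the opposite strand: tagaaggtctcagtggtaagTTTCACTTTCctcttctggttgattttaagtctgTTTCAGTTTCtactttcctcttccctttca
Isg15, chr4:156200855-156200916 (-), 3 overlapping ISRE cores: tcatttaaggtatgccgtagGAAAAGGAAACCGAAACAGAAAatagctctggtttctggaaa
Bst2, chr8:71537567-71537628 (-), a GAS match that runs into the first of 2 overlapping ISRE cores: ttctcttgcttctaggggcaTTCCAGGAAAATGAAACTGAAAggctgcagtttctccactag
Igtp, chr11:58199491-58199551 (+), a GAS match followed by an ISRE core: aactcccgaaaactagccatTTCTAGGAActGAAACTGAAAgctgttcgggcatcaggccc
Irgm2, chr11:58214882-58214942 (+), the same order of GAS and ISRE: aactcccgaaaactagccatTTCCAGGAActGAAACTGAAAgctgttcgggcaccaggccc
Irf1, chr11:53769904-53769952 (+), a GAS match: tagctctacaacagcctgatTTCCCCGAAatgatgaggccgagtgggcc
B2m, chr2:122147528-122147577 (+), an ISRE core: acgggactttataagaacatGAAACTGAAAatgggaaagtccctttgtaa
Ifi47, chr11:49076387-49076586 (+), the 200 bases before the start, with no match to these letters: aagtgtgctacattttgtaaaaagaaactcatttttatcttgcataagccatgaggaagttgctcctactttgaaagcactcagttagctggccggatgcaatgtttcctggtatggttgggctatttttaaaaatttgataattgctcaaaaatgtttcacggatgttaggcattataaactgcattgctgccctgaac
The Igtp and Irgm2 stretches were identical at 59 of 61 bases. This is the pair that the table holds as a single locus. The Isg15 and Bst2 stretches show the motifs packed side by side, while in Ifit3 the 2 cores stand apart.

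**Figure D1:**
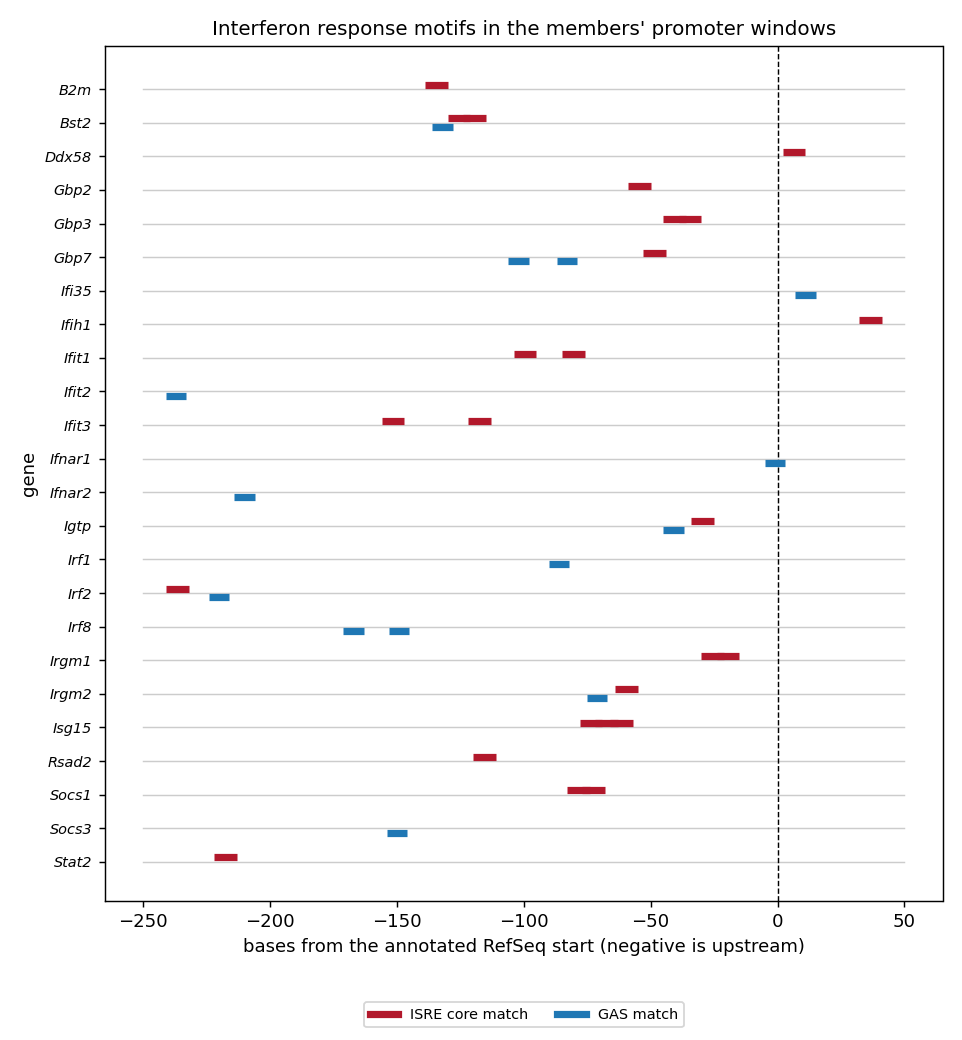
Matches to the ISRE core (red) and GAS (blue) in the promoter windows of members that hold at least 1, by distance in bases from the annotated RefSeq start (dashed line); grey lines mark the windows of 300 bases. Most matches lie upstream of the start, and those of Igtp and Irgm2 keep the same order and spacing.

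Against HG, 4 of the 39 loci were lower with rFGF1WT and the same number with rFGF1ΔHBS, and none was higher. They were the GTPase locus Ifi47, the locus of the antiviral genes Ifit2 and Ifit3, the ISG15 protease Usp18, and Tap2, a subunit of the peptide transporter that loads MHC class I. Ifi47 was among the tested loci only through its HG values, as described below. A locus was called at a Benjamini-Hochberg adjusted p below 0.05 in limma over all 10562 loci. With rFGF1WT, 2.94% of all tested loci were called lower and 3.26% higher, and with rFGF1ΔHBS 2.89% and 3.37%. Ifi47 and Ifit2/Ifit3 also differed at least 2-fold in both comparisons, as did 1.01% and 0.899% of all loci. The median log2 fold change of the 39 loci was -0.09 with rFGF1WT, beside -0.04 for all tested loci, and -0.18 with rFGF1ΔHBS, beside -0.04. Among the 33 loci of a single gene, Usp18 and Tap2 were the 2 calls in each comparison, so that the 2 loci with the largest changes both merge several genes.

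Taking only whether the libraries of a group overlapped, 19 of 39 loci had both rFGF1WT values below both HG values and 7 had both above, where all loci gave 34.1% and 24.1%. With rFGF1ΔHBS, 21 loci were apart and lower and 7 apart and higher, beside 32.9% and 24.4% of all loci. At an unadjusted p below 0.05, 8 loci were lower and 4 higher with rFGF1WT, where 14.0% and 10.8% of all loci were. With rFGF1ΔHBS 15 were lower and 1 higher, beside 14.0% and 10.9%.

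Ifi47 (Ensembl ENSMUSG00000078920), a GTPase of the immunity-related family that interferon gamma induces, had the lowest values relative to HG of all members. It stood at 6.40 and 6.27 FPKM in the HG libraries, at 0.139 and 0.518 with rFGF1WT, and at 0.0937 and 0.417 with rFGF1ΔHBS. Every HG value was thus above every FGF1 value, and the FGF1 groups overlapped each other. The mean in HG (6.34 ± 0.0940, SD, n = 2) was 19.3 times that with rFGF1WT (0.329 ± 0.268) and 24.8 times that with rFGF1ΔHBS (0.255 ± 0.229). On the log2(FPKM + 1) scale, which understates changes at low levels, the differences were -2.48 ± 0.21 (SE) and -2.56 ± 0.21, with limma adjusted p of 0.0144 and 0.0150. The locus reached the level for testing (mean 2.31 FPKM) only through its HG values, since every FGF1 value was below 1. A locus as low in HG would not have been tested, so the call depends in part on this selection. Without the filter on low FPKM the limma adjusted p were 0.029 and 0.0304. The table joins Ifi47 with the olfactory receptor gene Olfr56, and 5 of the 9 transcripts of the locus are Ifi47 transcripts. In GENCODE M21 (GRCm38) Ifi47 lies at chr11:49076587-49096974 on the plus strand, inside the span of Olfr56 (chr11:48978889-49135387), and the values cannot be divided between these genes. That span also covers the related GTPase genes Tgtp1 and Tgtp2 on the minus strand. Tgtp2 was at 4.20 and 4.17 FPKM in HG, 3.49 and 3.94 with rFGF1WT, and 0.0969 and 3.26 with rFGF1ΔHBS, and Tgtp1 varied between 0.118 and 1.70 with no order by group. Neither neighbour therefore had the gap of Ifi47 between HG and both FGF1 groups.

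Ifit2 and Ifit3 encode tetratricopeptide proteins that bind viral RNA or restrain viral translation, and sit beside each other on chromosome 19 (Ifit2 at chr19:34550694-34576419, Ifit3 at chr19:34583531-34588731) with the copy Ifit3b. Their joint locus held 27.4 and 24.02 FPKM in HG, 10.5 and 11.8 with rFGF1WT, and 8.94 and 9.66 with rFGF1ΔHBS. All FGF1 values lay below all HG values, and those of rFGF1ΔHBS lay below those of rFGF1WT. The difference from HG was -1.14 ± 0.10 (SE) with rFGF1WT and -1.37 ± 0.10 with rFGF1ΔHBS on the log2 scale, with limma adjusted p of 0.0159 and 0.0140. The HG mean was 2.31 and 2.76 times the FGF1 means. The related Ifit1, in its own locus nearby, was listed at 0 and 0.181 FPKM in HG, at 0.394 and 0.707 with rFGF1WT, and at 0 in both rFGF1ΔHBS libraries, too low to be tested.

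Usp18 removes ISG15 from proteins and blocks signalling at IFNAR2. It was measured at 4.55 and 4.47 FPKM in HG, 3.10 and 2.75 with rFGF1WT, and 2.45 and 2.28 with rFGF1ΔHBS. The groups did not overlap and stood in the descending order HG, rFGF1WT, rFGF1ΔHBS. Log2 differences from HG were -0.49 ± 0.08 (SE, limma adjusted p = 0.0478) and -0.71 ± 0.08 (adjusted p = 0.0229). Usp18 lies at chr6:121245906-121270917 (GRCm38) and has a locus to itself in the table.

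Tap2, on chromosome 17 (chr17:34203527-34216321), stood at 11.7 and 12.2 FPKM in HG, 8.97 and 8.67 with rFGF1WT, and 9.32 and 8.87 with rFGF1ΔHBS. Both FGF1 groups were below HG and overlapped each other. The log2 differences of -0.40 ± 0.06 (SE) and -0.36 ± 0.06 had limma adjusted p of 0.0397 and 0.0477. These are the smallest of the called changes, with an HG mean 1.35 and 1.31 times the FGF1 means.

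With 2 libraries per group, these calls were easily lost. Without either HG library or without rFGF1WT replicate 1, none of the 4 loci passed for rFGF1WT against HG, and without rFGF1WT replicate 2 only Ifi47 did. For rFGF1ΔHBS against HG, none passed without HG replicate 1 or without rFGF1ΔHBS replicate 2, only Ifit2/Ifit3 passed without HG replicate 2, and without rFGF1ΔHBS replicate 1 the only member past the threshold was Ifngr1, which was then higher. Usp18 and Tap2 were also lost under other settings. With rFGF1WT, Usp18 was not called under median-ratio or quantile scaling, without the filter on low FPKM, or with only the 4 libraries compared (limma adjusted p from 0.0516 to 0.115), and Tap2 was not called under the last 3 of these (0.0513 to 0.0795). With rFGF1ΔHBS, Usp18 was lost without the filter or with 4 libraries (0.0543 to 0.0564), and Tap2 under all 4 settings (0.0533 to 0.0959). With rFGF1WT, Ifi47 missed the threshold at a pseudocount of 0.1 (adjusted p = 0.0521) and Ifit2/Ifit3 with only the 4 libraries compared (0.0515). With a replicate block none of the 4 loci was called in either comparison (limma adjusted p from 0.0521 to 0.12), at unchanged log2 differences. When a library was left out, its group rested on 1, which was assumed to vary like the libraries of the other groups. All 4 loci were lower than HG in both comparisons under every alternative setting in which they were tested.

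**Figure D2:**
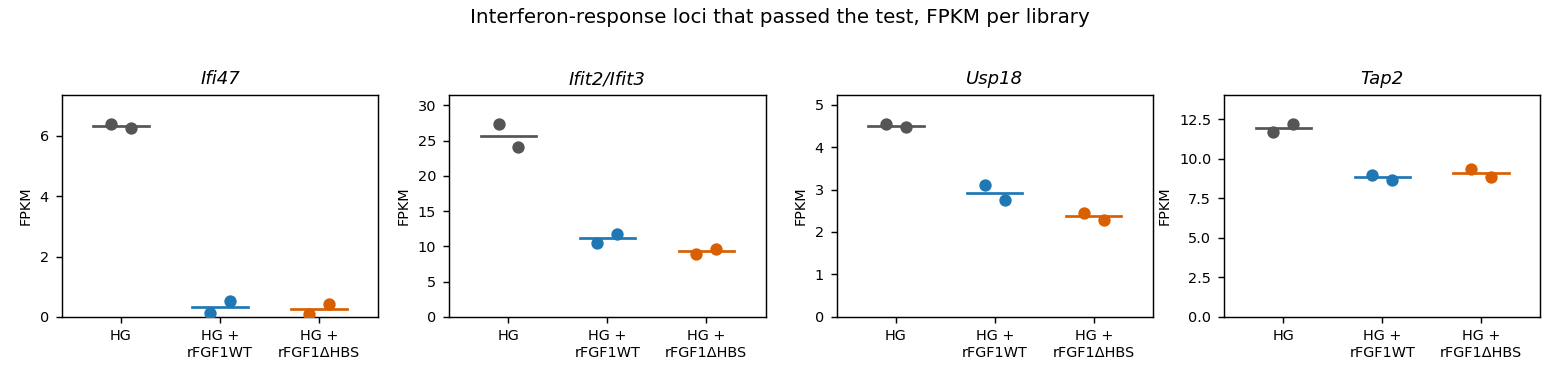
FPKM per library (points) and group mean (lines) of the 4 loci that passed the test against HG, on linear axes from 0, with 2 libraries per group. In each panel both HG points lie above all 4 FGF1 points, with Ifi47 between 6.27 and 6.40 in HG and at most 0.518 in the FGF1 libraries.

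Among the receptor chains, those of the type I receptor were nearly level across the groups, while those of the interferon gamma receptor jumped between libraries. None of the 4 loci passed the test in any comparison. Ifnar1 was at 31.0 and 30.2 FPKM in HG, 29.4 and 31.2 with rFGF1WT, and 31.2 and 30.5 with rFGF1ΔHBS. These ranges overlapped, with log2 differences from HG of -0.02 ± 0.05 (SE) and 0.01 ± 0.05 (limma adjusted p = 0.889 and 0.936) that changed sign under another scaling. Ifnar2, in a locus merged with Il10rb and Gm21970, was at 14.1 and 14.7 in HG, 12.4 and 14.6 with rFGF1WT, and 15.2 and 15.1 with rFGF1ΔHBS. Its log2 differences were -0.09 ± 0.09 (limma adjusted p = 0.575) and 0.07 ± 0.09 (adjusted p = 0.686).

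Ifngr1, the ligand-binding chain of the interferon gamma receptor, was at 25.7 FPKM in both HG libraries and at 47.1 and 46.4 with rFGF1WT. With rFGF1ΔHBS it was at 27.1 in replicate 1 and 48.1 in replicate 2, so that 1 library resembled HG and the other rFGF1WT. The log2 differences from HG were 0.84 ± 0.28 (SE, limma adjusted p = 0.167) and 0.48 ± 0.28 (adjusted p = 0.373). The first was called, at 0.84, without either rFGF1ΔHBS library or with only the 4 libraries compared, and the second, at 0.88, without rFGF1ΔHBS replicate 1, where the group held only the library at the high level. Without rFGF1ΔHBS replicate 2 the second fell to 0.07. The study lists Ifngr2, the accessory chain, from these libraries among inflammatory genes whose rise in HG was largely reversed with FGF1. Ifngr2 was at 40.7 and 40.6 FPKM in HG, at 24.2 and 40.3 with rFGF1WT, and at 22.1 and 23.7 with rFGF1ΔHBS. Here rFGF1WT replicate 2 stood just under HG while the other 3 FGF1 libraries stood far below. The log2 differences were -0.37 ± 0.25 (limma adjusted p = 0.428) and -0.80 ± 0.25 (adjusted p = 0.147). Leaving out rFGF1WT replicate 2 moved the first to -0.72, and leaving out rFGF1WT replicate 1 moved it to -0.01. The second was called without either rFGF1WT library or with only the 4 libraries compared, at -0.80 in each case. The values of each gamma receptor chain thus lay near either a low or a high level in these libraries. The libraries at the high level were not the same for the 2 genes. So few libraries cannot tell separate levels from a continuous range.

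**Figure D3:**
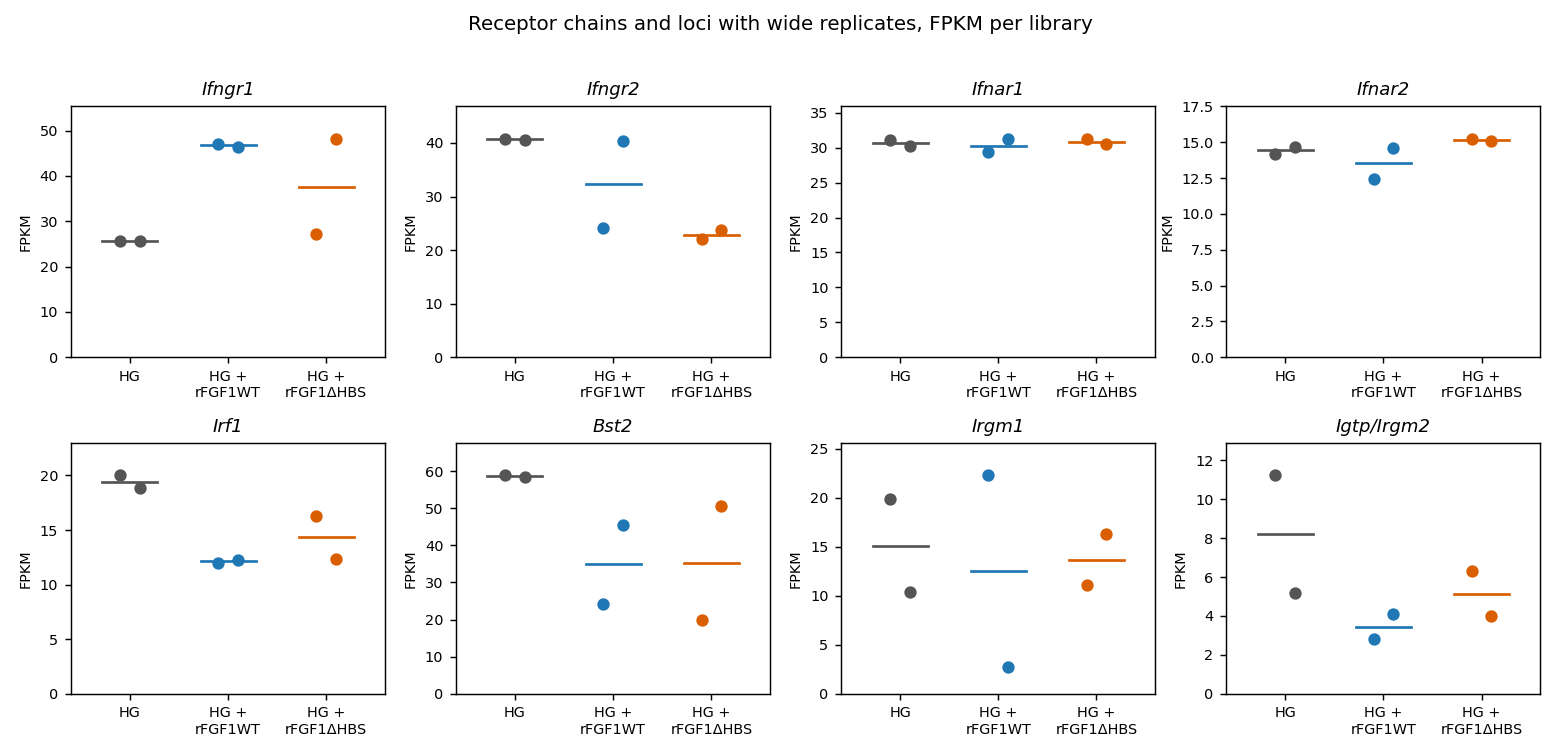
FPKM per library (points) and group mean (lines) of the receptor chains, Irf1, Bst2, Irgm1 and Igtp/Irgm2, on linear axes from 0. Ifnar1 and Ifnar2 stay level, Ifngr1 and Ifngr2 split rFGF1ΔHBS or rFGF1WT into a high and a low library, and Irgm1 in rFGF1WT ranges from 2.73 to 22.3.

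No JAK, STAT or SOCS locus passed the test. Jak1, the kinase shared by both receptors and the highest of this group, was at 34.2 and 38.2 FPKM in HG, 32.5 and 32.6 with rFGF1WT, and 38.5 and 36.7 with rFGF1ΔHBS. Its log2 differences from HG were -0.15 ± 0.07 (SE, limma adjusted p = 0.302) and 0.05 ± 0.07 (adjusted p = 0.680), and the values with rFGF1ΔHBS overlapped those in HG. The first moved to -0.22 without HG replicate 1 and to -0.07 without HG replicate 2. Jak2 ranged from 16.4 to 19.8 FPKM and Stat2 from 12.9 to 16.3 over the 6 libraries, with each group overlapping HG. Of the feedback inhibitors in the set, Usp18 was called lower, as described above, and the SOCS genes did not pass. Socs3 was at 6.85 and 7.55 in HG, 8.80 and 9.05 with rFGF1WT, and 8.36 and 9.93 with rFGF1ΔHBS (limma adjusted p = 0.194 and 0.165). Socs1, whose promoter window holds overlapping ISRE cores, was low throughout, at 0.911 and 0.845 in HG, 1.77 and 1.12 with rFGF1WT, and 1.41 and 1.04 with rFGF1ΔHBS. For both SOCS genes all FGF1 libraries lay above both HG libraries, but neither difference passed the threshold.

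Of the 6 IRF factors, which bind ISRE-like sites, none passed. With rFGF1WT, 4 lay wholly below HG and 1 wholly above, and with rFGF1ΔHBS 4 below and 2 above, beside the shares of all loci given above. Irf1, itself an early target of interferon gamma and holder of a GAS match shown above, was the highest of them, at 20.0 and 18.8 FPKM in HG, 12.0 and 12.3 with rFGF1WT, and 16.3 and 12.4 with rFGF1ΔHBS. The FGF1 libraries were all below HG, by -0.64 ± 0.14 (SE, limma adjusted p = 0.0818) and -0.42 ± 0.14 (adjusted p = 0.160) on the log2 scale. The second moved to -0.61 without rFGF1ΔHBS replicate 1 and to -0.24 without replicate 2. Irf7, which amplifies the type I response, was at 7.50 and 8.09 in HG, 6.66 and 6.23 with rFGF1WT, and 4.63 and 5.98 with rFGF1ΔHBS (limma adjusted p = 0.325 and 0.105). In contrast, Irf3, the factor that sensors activate by phosphorylation, was at 7.05 and 7.63 in HG, 9.72 and 10.1 with rFGF1WT, and 9.74 and 7.73 with rFGF1ΔHBS. All 4 FGF1 values of Irf3 exceeded those in HG, whereas all 4 of Irf1 and of Irf7 were under them. Irf2 and Irf9, the latter in a locus merged with Rnf31, were also below HG in all FGF1 libraries, within total ranges of 3.15 to 3.67 and 6.50 to 8.07 FPKM. Irf8 spanned 2.15 to 4.39, overlapping HG with rFGF1WT and lying above it with rFGF1ΔHBS.

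Of 13 antiviral and ISG15 loci tested, 2 were called lower in each comparison with HG (Ifit2/Ifit3 and Usp18) and none higher. With rFGF1WT, 6 of the 13 lay wholly below HG and 1 wholly above, beside 34.1% and 24.1% of all loci. With rFGF1ΔHBS, 10 lay wholly below and none above, beside 32.9% and 24.4%, and their median log2 difference was -0.22. Parp14, a poly(ADP-ribose) polymerase family member, was at 14.9 and 15.3 FPKM in HG, 8.77 and 11.9 with rFGF1WT, and 11.5 and 10.8 with rFGF1ΔHBS (limma adjusted p = 0.131 and 0.192). Ddx58, which encodes the RNA sensor RIG-I, was at 10.4 and 10.2 in HG, 8.40 in both rFGF1WT libraries, and 7.86 and 8.57 with rFGF1ΔHBS (adjusted p = 0.0973 and 0.0774). Both were below HG in all FGF1 libraries without passing the test. Bst2, the tetherin gene and the most abundant of the group, was at 58.8 and 58.5 in HG, 24.2 and 45.5 with rFGF1WT, and 19.9 and 50.5 with rFGF1ΔHBS. In both FGF1 groups replicate 1 was far below HG and replicate 2 nearer to it, and the log2 differences of -0.80 ± 0.53 (SE) and -0.86 ± 0.53 had limma adjusted p of 0.425 and 0.397. Leaving out replicate 1 of rFGF1WT and of rFGF1ΔHBS in turn moved these to -0.36 and -0.21, and leaving out replicate 2 moved them to -1.24 and -1.51.

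Among the tested antiviral loci, Isg15, Oasl2 and Ifih1 were those whose values overlapped HG in both FGF1 groups. Isg15, a ubiquitin-like protein with overlapping ISRE cores in its promoter window, was at 20.0 and 24.5 FPKM in HG, 25.8 and 23.6 with rFGF1WT, and 22.9 and 22.5 with rFGF1ΔHBS. Oasl2 ranged from 5.70 to 11.5, with its extremes in the HG libraries, and the RNA sensor Ifih1 from 2.52 to 2.97. Rsad2, which encodes viperin, Ifi35, Trim25 and Xaf1 spanned 2.83 to 3.46, 7.71 to 10.0, 20.1 to 26.7 and 3.06 to 3.87 FPKM. In these 4 loci both rFGF1ΔHBS values lay below both HG values, and none passed the test. With rFGF1WT both Rsad2 values lay below HG, while Ifi35, Trim25 and Xaf1 overlapped it. Mx1 was below the level for testing, at 0.262 to 0.415 FPKM, and Mx2 was at 1.08 to 1.43. Of the genes with ISRE cores shown above, Isg15 thus overlapped HG while the locus holding Ifit3 was called lower.

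The 5 tested GTPase loci held the largest difference, that of Ifi47, and otherwise no call. Gbp2, a guanylate-binding protein and the most abundant of them, was at 21.1 and 23.3 FPKM in HG, 27.2 and 26.7 with rFGF1WT, and 26.7 and 24.04 with rFGF1ΔHBS. All FGF1 values were above HG, by 0.27 ± 0.08 (SE, limma adjusted p = 0.142) and 0.18 ± 0.08 (adjusted p = 0.257). With 1 library left out, the second ran from 0.11 to 0.26. Gbp3 ranged from 9.43 to 11.6 FPKM and Gbp7, untested, from 0.687 to 1.44. The immunity-related GTPases Igtp and Irgm2 share a locus (Igtp at chr11:58199556-58207591, Irgm2 from 58199618 to 58222782), measured at 11.2 and 5.15 in HG, 2.80 and 4.10 with rFGF1WT, and 6.30 and 3.98 with rFGF1ΔHBS. Irgm1 spanned 19.8 and 10.4 in HG, 22.3 and 2.73 with rFGF1WT, and 11.1 and 16.3 with rFGF1ΔHBS. Both rFGF1WT values of Igtp/Irgm2 lay below both HG values, with a log2 difference of -0.98 ± 0.41 (SE, limma adjusted p = 0.245), and the rFGF1ΔHBS values overlapped HG (-0.52 ± 0.41, adjusted p = 0.493). The groups overlapped for Irgm1, where the SE of 0.96 exceeded the difference itself (-0.72 with rFGF1WT, limma adjusted p = 0.684). Of the 5, Gbp2 and Gbp3 had higher and Ifi47, Igtp/Irgm2 and Irgm1 lower fitted values in each comparison with HG.

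In the antigen presentation genes, the fitted difference from HG was negative for all 6 tested loci in both comparisons, under both other scalings of the libraries as well, and 5 of the 6 lay wholly below HG in each. Of all tested loci, 56.2% and 55.6% had a negative difference and 34.1% and 32.9% lay wholly below HG. Tap2 was the call. Its partner Tap1 was at 6.39 and 6.59 FPKM in HG, 5.26 and 5.23 with rFGF1WT, and 5.03 in both rFGF1ΔHBS libraries (limma adjusted p = 0.0787 and 0.0548). Tapbp, or tapasin, which bridges the transporter to MHC class I and is merged with Rgl2 and Zbtb22, was at 29.7 and 29.1 in HG, 26.6 and 24.8 with rFGF1WT, and 22.4 and 24.8 with rFGF1ΔHBS. Of the class I heavy chains, H2-K1 was at 72.3 and 71.4 in HG, 70.7 and 64.6 with rFGF1WT, and 53.0 and 63.5 with rFGF1ΔHBS. H2-D1 was at 49.2 and 48.6, then 47.4 and 46.2, then 40.4 and 44.1 in the same order. The median log2 differences of the 6 loci were -0.18 and -0.31. Among 15 further tested loci of antigen presentation, 12 and 10 differences were negative and 3 and 5 positive, with medians of -0.11 and -0.15. B2m, the class I light chain, was the most abundant member, at 523 and 390 FPKM in HG, 431 and 371 with rFGF1WT, and 390 and 365 with rFGF1ΔHBS. The HG libraries of B2m were further apart than the groups, with log2 differences of -0.17 ± 0.17 (SE, limma adjusted p = 0.568) and -0.26 ± 0.17 (adjusted p = 0.421), and without HG replicate 1 they moved to 0.04 and -0.04. Without HG replicate 2 they were -0.39 and -0.47. Cd274, which encodes PD-L1, was untested at 0.565 to 1.11 FPKM.

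**Figure D4:**
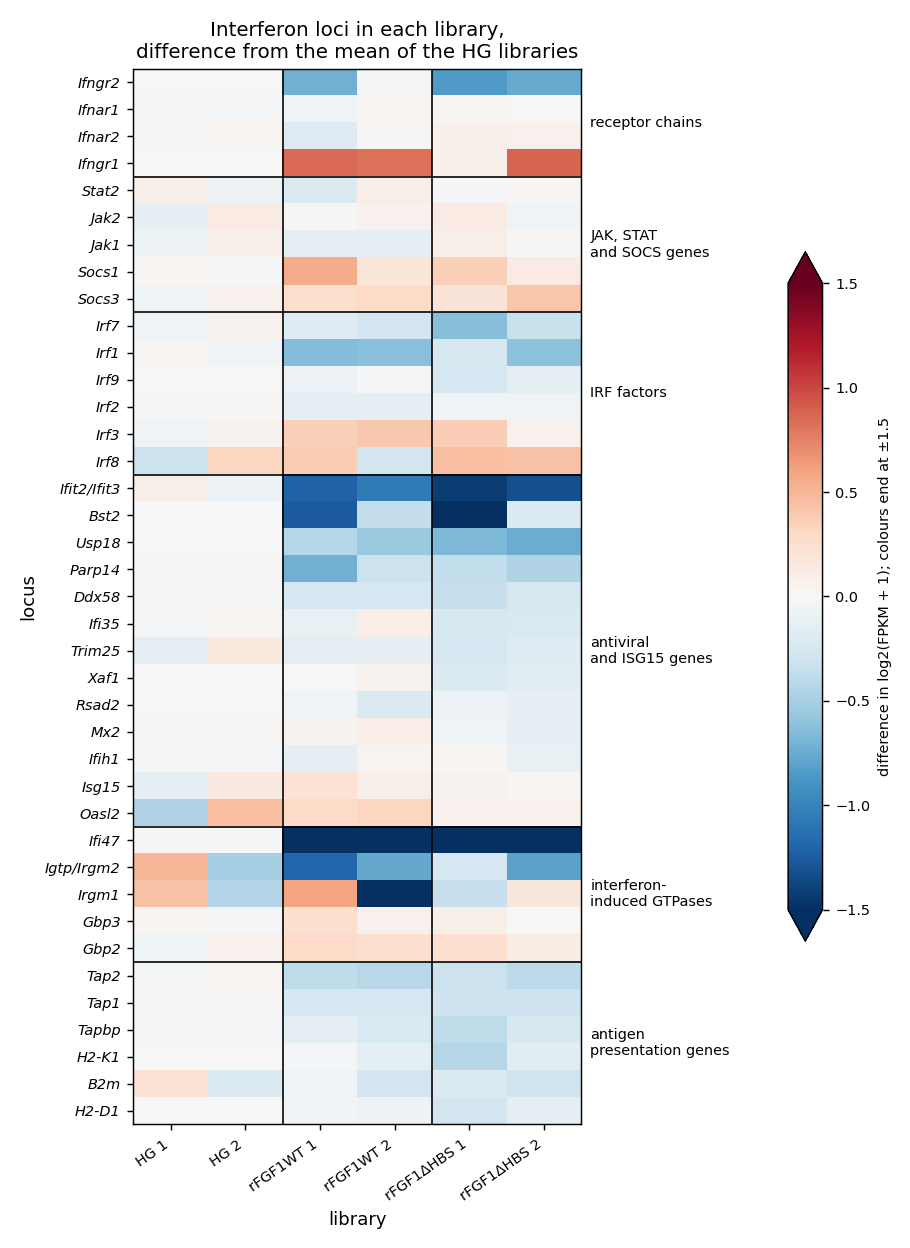
Difference in log2(FPKM + 1) from the mean of the HG libraries for the 39 tested loci (rows, grouped by role) in the 6 libraries (columns); blue is below and red above HG, with colours ending at ±1.5. Ifi47 and Ifit2/Ifit3 are dark blue in all 4 FGF1 libraries, the antigen presentation rows are pale blue, and Ifngr1, Ifngr2, Bst2 and Irgm1 differ between libraries of a group.

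Other interferon genes were taken from 7 lists of 139 symbols, 125 of which were in the table, and 87 loci apart from the members were tested. With rFGF1WT none was called lower and 3 higher, and with rFGF1ΔHBS 4 lower, 3 of which are described here, and 3 higher, beside the percentages of all loci given above. The median log2 difference was -0.07 and -0.12. Called lower with rFGF1ΔHBS was Cxcl10, a chemokine induced by interferon gamma, at 28.8 and 26.9 FPKM in HG, 21.9 and 23.1 with rFGF1WT, and 18.4 and 19.0 with rFGF1ΔHBS (log2 difference -0.55, limma adjusted p = 0.0231). Psmb8, an immunoproteasome subunit, was at 14.8 and 15.5, then 13.2 and 12.0, then 10.9 and 10.7 (-0.45, adjusted p = 0.0401). The antiviral helicase-like gene Znfx1 was at 13.7 and 14.1, then 11.9 and 12.3, then 8.87 and 7.04 (-0.75, adjusted p = 0.0401). For each of these 3 the rFGF1WT values lay between those of HG and of rFGF1ΔHBS, and the difference of rFGF1WT from HG was not called.

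Called higher in both comparisons were 3 others. Ifi204, a nuclear DNA-sensing protein gene of the p200 family, was at 9.21 and 9.56 FPKM in HG, 16.0 and 18.6 with rFGF1WT, and 15.2 and 15.7 with rFGF1ΔHBS (log2 difference 0.81 and 0.66, limma adjusted p = 0.0217 and 0.0317). Tmem173, which encodes STING, was at 26.0 and 22.8, then 36.4 and 36.7, then 37.7 and 35.4 (0.57 in both, adjusted p = 0.0358 and 0.0353). Ptpn6, a phosphatase that dampens JAK and STAT signalling, was at 10.0 in both HG libraries, 13.8 and 14.0 with rFGF1WT, and 12.6 and 13.7 with rFGF1ΔHBS (0.43 and 0.36, adjusted p = 0.0340 and 0.0494). The calls outside the members rested on few libraries too. They came to 0 or 1 for rFGF1WT against HG and to 0 to 2 for rFGF1ΔHBS against HG whichever library was left out. Of the genes described here, these held only Ifi204, in both comparisons, and Znfx1 with rFGF1ΔHBS. The others were Ticam1, Iigp1, Tgtp2 and Apol9a, which were not called with all 6 libraries. With a replicate block the calls came to 0 in both. Of 12 interferon ligand genes, 2 were listed, Ifne and Ifnz, with no library above 0.233 FPKM.

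The comparison of rFGF1ΔHBS with rFGF1WT asked whether the substitutions in the heparan sulfate-binding site altered the response. None of the 39 loci was called (smallest limma adjusted p 0.905), where 0.256% of all loci were called lower, 0.294% higher and 0.350% at least 2-fold in either direction. At an unadjusted p below 0.05, Usp18 and Xaf1 were lower and Jak1 higher, so 2 and 1 of 39 where all loci gave 2.41% and 2.45%. For Ifi47 the log2 difference was -0.08, with a 95% interval from -0.63 to 0.47, and for Tap2 it was 0.04, from -0.12 to 0.20. Ifit2/Ifit3 differed by -0.24 (from -0.50 to 0.03) and Usp18 by -0.22, with an interval from -0.44 up to just under 0. For Ifnar1 the interval ran from -0.12 to 0.17, whereas for Ifngr1 it ran from -1.10 to 0.38 and for Ifngr2 from -1.10 to 0.23. These intervals are not adjusted for the number of loci, and they leave room for a difference of about 2-fold in the gamma receptor chains but not in Tap2 or Ifnar1. Both rFGF1ΔHBS values lay below both rFGF1WT values in 16 of the 39 loci and above in 5, beside 16.1% and 18.4% of all loci. The lower ones included 8 of the 13 antiviral and ISG15 loci and 4 of the 6 antigen presentation loci. The median log2 difference over the 39 loci was -0.08, beside 0.01 for all tested loci.

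**Figure D5:**
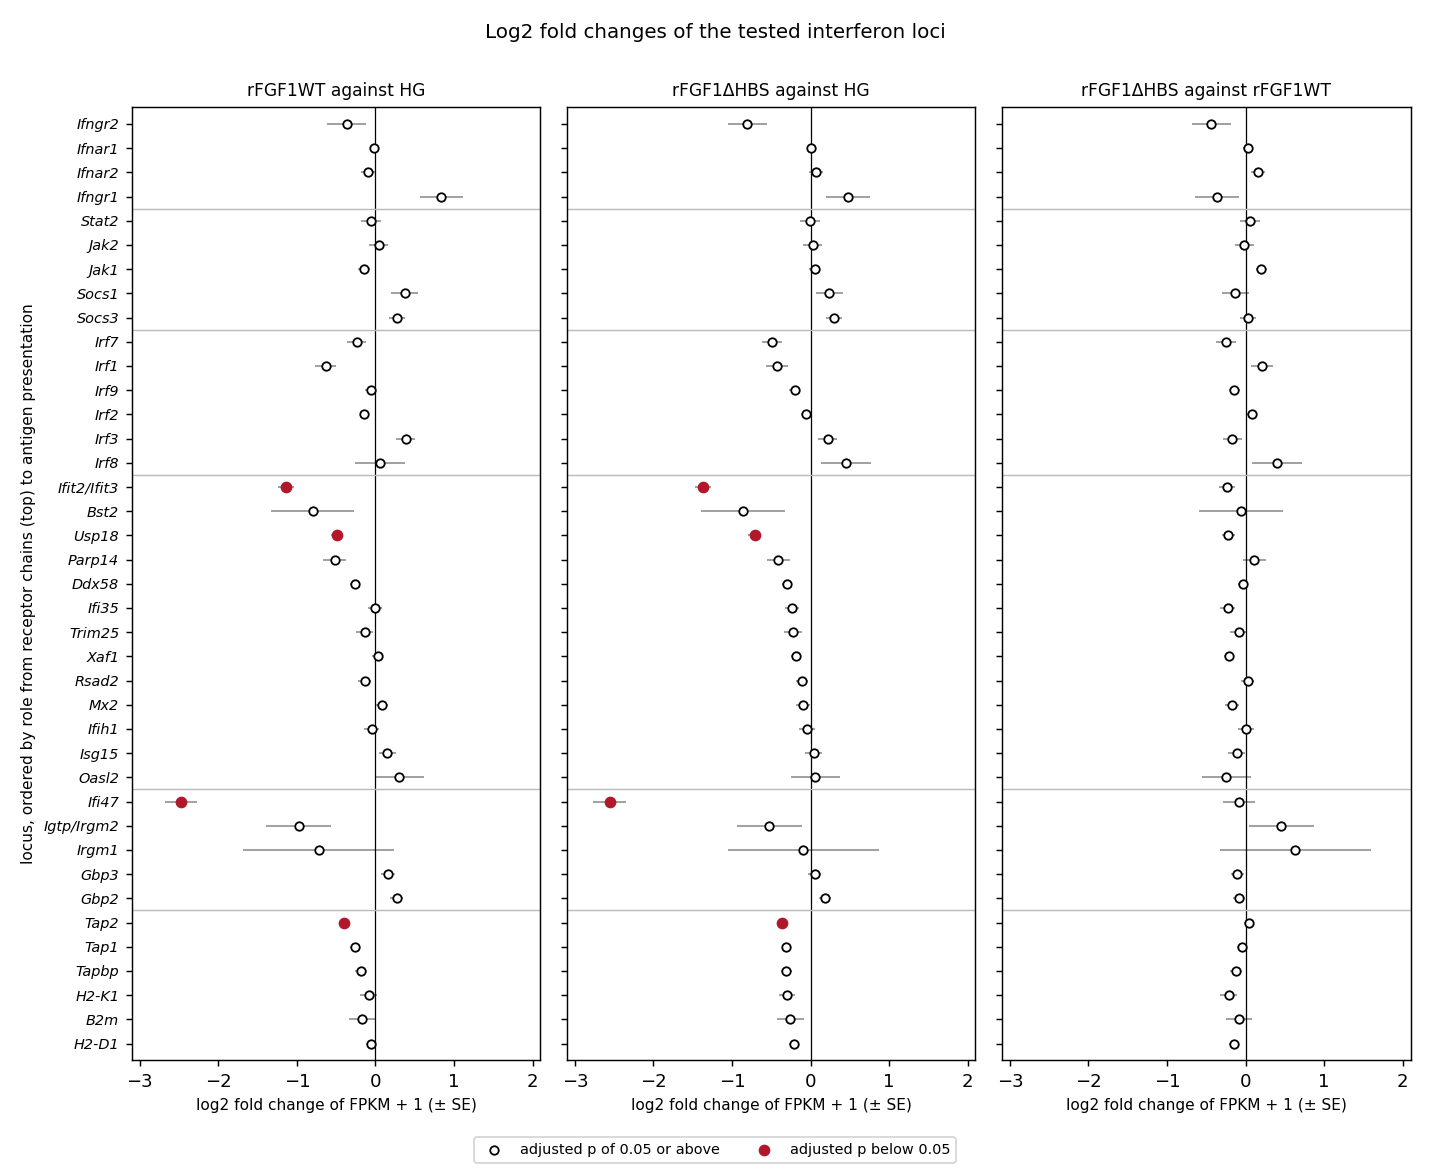
Fitted log2 fold change of FPKM + 1 with its standard error for each of the 39 tested loci in the 3 comparisons, ordered by role; filled red points have a limma adjusted p below 0.05. The 4 red points in each of the left and middle panels are Ifi47, Ifit2/Ifit3, Usp18 and Tap2, and the right panel has none.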

How the data were processed

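Poly(A) RNA was sequenced in paired ends in 6 libraries, and the authors deposited a single table of FPKM per locus. The submitters' processing notes name Bowtie 0.12.2, HISAT2 2.0, StringTie 1.3.0 and the build mm8. The table carries no coordinates, so positions come from GENCODE M21 (GRCm38) through the locus transcripts, and promoters from RefSeq (GRCm38.p6). No strand setting is given in the sources used here. StringTie merges overlapping genes, and 519 loci of the table hold several gene names, so fragments of merged genes and of close copies (Ifit, Gbp, Irgm, H2) may be divided in ways the values do not show.

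Libraries were grouped by their labels, which name the treatment. No symbol of a member had more than 1 row. The deposited FPKM values entered limma 3.58.1 (R 4.3.3) as log2(FPKM + 1) (trend, 3 groups, 3 residual and 1.365 prior degrees of freedom) over the 10562 loci whose mean FPKM reached 1, with Benjamini-Hochberg adjustment over all of them. Calls used an adjusted p of 0.05. An exact permutation test of 2 against 2 libraries cannot go below 0.333 and was not used. Python 3.11.15 with pandas 2.3.3, numpy 2.4.6 and, for plots, matplotlib 3.10.9 did the rest. On simulated data for rFGF1WT against HG, limma called 70.5% of 200 changed genes among 10562, with 5 false calls. The changes put into these data were at least 2-fold on the log2(FPKM + 1) scale, larger than those of Usp18 and Tap2. The share called therefore does not apply to smaller differences, such as most of those reported here.

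FPKM holds no read depth. The relative depth read from 148 to 176 low values per library, on a step of whole fragments, was 0.973 to 1.01 of that of HG replicate 1. The fit was repeated with a pseudocount of 0.1, without the filter or with a mean of at least 5, with median-ratio or quantile scaling, on the 4 libraries compared, with a replicate block, with a 2-fold limit, and without each library in turn. Some items of the gene and marker lists are not reported here. Members, gene lists and markers were chosen with earlier results of these data known. Full values were given for called members, receptor chains and the most abundant locus of each role, as the rule for named genes set out. The values of Parp14, Ddx58, Irf3, Irf7, Socs1, Socs3, Isg15, Igtp/Irgm2, Irgm1, Tap1, Tapbp, H2-K1, H2-D1, Ifit1, Csf1r, Synpo, Podxl, Pdgfrb, Acta2, Gata3, H2-Ab1, H2-Eb1, Cd74, Nlrc5, Gvin1, Tgtp1 and Tgtp2 per library go beyond it and were chosen after they were seen.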

Additional observations from a re-analysis of the deposited data

Results flagged for a closer look

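Mx2, a dynamin-like antiviral GTPase that GENCODE M21 lists as a polymorphic pseudogene in this mouse reference, lay on opposite sides of HG in the FGF1 groups. It was at 1.23 and 1.30 FPKM in HG, at 1.36 and 1.43 with rFGF1WT, and at 1.16 and 1.08 with rFGF1ΔHBS. The log2 difference of rFGF1ΔHBS from rFGF1WT was -0.17, with a limma adjusted p of 0.905, so it did not pass the test.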

How the results depend on the processing

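Of all loci, 654 were called for rFGF1WT against HG, 661 for rFGF1ΔHBS against HG and 58 for rFGF1ΔHBS against rFGF1WT. A 2-fold limit left 107, 95 and 37. Without a filter on low FPKM the first 2 counts were 407 and 386, and with only the 4 libraries compared 170 and 189. A mean FPKM of at least 5 left 31 in the third. With 1 library left out, whichever it was, the counts ran from 134 to 195 and from 118 to 198, and in the third comparison from 43 to 107, the highest without rFGF1WT replicate 1 and next, at 105, without its replicate 2. Of the 4 members called in each comparison with HG, 2 were left in each under a 2-fold limit, a mean of at least 5 or no filter. For rFGF1WT, 2 passed with only the 4 libraries compared (Ifi47 lower and Ifngr1 higher) and 2 with quantile scaling. With 1 library left out, 0 to 2 and 0 to 3 members passed, and between the FGF1 proteins 0 under every setting. The cause of these changes was not tested. The replicate block left 0 members and 41, 39 and 6 loci. Correlations of same-numbered deviations were -0.02, 0.10 and -0.05 between the groups, so the replicate numbers were not taken to pair the libraries. The log2 difference of Ifnar1 turned to 0.0248 with rFGF1WT under median-ratio scaling and to -0.0031 with rFGF1ΔHBS under quantile scaling. With 1 library left out it ran from -0.0569 to 0.0258 and from -0.0083 to 0.0281. The same ranges were -0.1976 to 0.0173 for Ifnar2 and -0.3872 to 0.038 for B2m with rFGF1WT, and -0.024 to 0.1335 for Jak1 with rFGF1ΔHBS. The Ifi47 difference with rFGF1WT was -4.06 at a pseudocount of 0.1 (limma adjusted p = 0.0521). Other interferon loci, repeated under the same settings after the data were seen, gave 1 call in each comparison with HG without a filter, and 0 and 1 with only the 4 libraries compared. Absolute depth was unknown, which limits the precision of low values such as those of Ifi47 in the FGF1 libraries.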

Other observations

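MHC class II genes, which interferon gamma induces through Ciita, were nearly silent in these cells. Ciita was listed at no more than 0.0609 FPKM in any library, and H2-Aa at 0 in 5 of the 6. H2-Ab1 was at 0.488 and 0.542 FPKM in HG, 0.447 and 0.255 with rFGF1WT, and 0.170 and 0.354 with rFGF1ΔHBS, and the invariant chain Cd74 at 0.853 and 0.989, 0.684 and 0.498, and 0.461 and 0.710. All 4 FGF1 values of H2-Ab1 and of Cd74 were below the HG values, but both genes were under the level for testing. H2-Eb1, also untested, was at 0.0365 and 0 in HG, at 0 with rFGF1WT, and higher, at 0.109 and 0.0371, with rFGF1ΔHBS. The class I activator Nlrc5 was at 2.51 and 2.83 FPKM in HG, 3.07 and 2.95 with rFGF1WT, and 3.38 and 3.39 with rFGF1ΔHBS, so that its FGF1 values lay above HG. Of the interferon gamma chemokines, Cxcl9 and Cxcl11 stayed at or under 0.135 FPKM beside Cxcl10. The large GTPase Gvin1 was at 8.69 in HG replicate 2 and 12.1 in rFGF1ΔHBS replicate 2 and at no more than 0.387 in the other 4 libraries.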
